A study of Rattus norvegicus with 4 samples.

Results

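Peroxisomal and PPAR alpha-driven lipid genes were examined in the livers of 4 untreated male Sprague-Dawley rats, an outbred laboratory strain. The 8 genes were Ehhadh, Acaa1a, Pex11a, Crat, Fabp1, Cd36, Acot1 and Pdk4. They were taken by name, and all probe sets annotated with 1 gene symbol equal to one of them were used. Of the 8 genes, 7 had such a probe set, which gave 8 of the 15923 probe sets on the array, and 7 of the 10412 genes with at least 1 probe set of their own. Acaa1a had none of its own, and its name appeared on 1 probe set that also carried Acaa1b. The rats were 10 to 12 weeks old, were fed standard feed without restriction and received no treatment. Each liver was hybridised to its own Affymetrix expression array, so animal and array cannot be told apart. The 4 arrays form 1 group, and no groups were compared. Values below are log2 signals, given for replicates 1 to 4 in that order, with the mean ± SD over n = 4 rats.

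PPAR alpha is a nuclear receptor that is activated by fatty acids and by fibrate drugs. It pairs with a retinoid X receptor on DNA at direct repeats of the sequence AGGTCA separated by 1 base, and in rodent liver it raises the transcription of genes for fatty acid uptake, transport and oxidation. Many of these genes encode enzymes of the peroxisome, an organelle that shortens very long fatty acids before mitochondria take over. Rat liver is a tissue in which fibrates multiply peroxisomes.

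The promoters of the 8 members were searched for that repeat, because the receptor binds it. The motif was AGGTCANAGGTCA, read on both strands, in the 250 bases before each RefSeq start of the rat assembly GRCr8, and up to 2 mismatches in its 12 fixed letters were allowed. It was found in 2 of the 8 windows, which are shown with the match in capitals.

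Fabp1 promoter, GRCr8 chr4:104749090-104749339, plus strand: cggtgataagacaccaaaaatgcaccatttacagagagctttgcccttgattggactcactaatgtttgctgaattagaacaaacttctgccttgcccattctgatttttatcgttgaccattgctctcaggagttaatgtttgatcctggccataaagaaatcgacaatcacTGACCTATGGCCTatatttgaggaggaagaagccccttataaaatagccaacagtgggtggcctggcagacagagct

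Crat promoter, GRCr8 chr3:34087100-34087349, minus strand: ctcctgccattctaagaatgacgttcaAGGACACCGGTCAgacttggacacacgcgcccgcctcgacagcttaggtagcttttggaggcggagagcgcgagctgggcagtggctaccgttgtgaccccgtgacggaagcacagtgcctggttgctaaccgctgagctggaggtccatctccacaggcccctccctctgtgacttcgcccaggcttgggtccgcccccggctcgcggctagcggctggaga

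The Fabp1 match had 1 mismatch and lay on the opposite strand, from base -77 to base -65 before the start. An element bound by PPAR alpha has been described in this part of the rat Fabp1 promoter. A repeat with up to 1 mismatch occurred in 0.368% of the 33469 rat promoters searched in the same way. The Crat match had 2 mismatches, and 3.15% of promoters held a repeat with up to 2. Part of the Fabp1 match is an intact AGGTCA, a half-site that 14.1% of promoters held. In the other 6 windows the letters of the repeat were not found at this limit, which says nothing about elements further away.

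The medians of all 4 arrays were 8.11, and values were used as deposited. A log2 signal of 8.45 served as the background level. It was the 95th percentile of 50 genes that mark brain, muscle, testis and eye, and 40.4% of all 10412 genes lay above it. Brightness depends on the probes of a probe set, so this level describes signal and does not rank genes by amount. Between-rat values were limited by flat probe sets, whose 4 values were equal to within 0.001. Such values were found for 42.4% of genes, and their SD does not measure the animals. Of the hepatocyte markers measured, 7 of 7 were above background, led by albumin (Alb) at 15.06. Skeletal and heart muscle markers were above background in 0 of 9 cases and adipocyte markers in 1 of 6. The muscle markers Ckm, Acta1, Myh4 and Tnnt3 are also among the genes that set the background level. Their place below it was therefore largely fixed in advance. Myh1, another muscle gene among those that set the level, had a signal of 11.49. A lower signal in liver RNA can mean fewer cells that express a gene or less RNA per cell, and these cannot be told apart.

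Of the 7 members measured, 4 were above background (57.1%, against 40.4% of all genes), namely Fabp1, Ehhadh, Crat and Pdk4. Pex11a, Cd36 and Acot1 were below it by the probe sets that carry their symbol alone. With a level at the 98th percentile (9.11, which 18.8% of all genes exceeded) 2 members lay above, Fabp1 and Ehhadh. The signals of Crat and Pdk4 exceeded the main level by 0.11 and 0.065 log2 units, so their calls rest on where the level is set. Of the 3 below it, Cd36 at 7.74 and Acot1 at 6.88 lay within the range of 27 controls for Bacillus transcripts (6.48 to 7.75). Pex11a at 8.22 lay above that range, as did 79.6% of all genes. In total 5 of the 7 members lay above the highest of these controls.

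**Figure D1:**
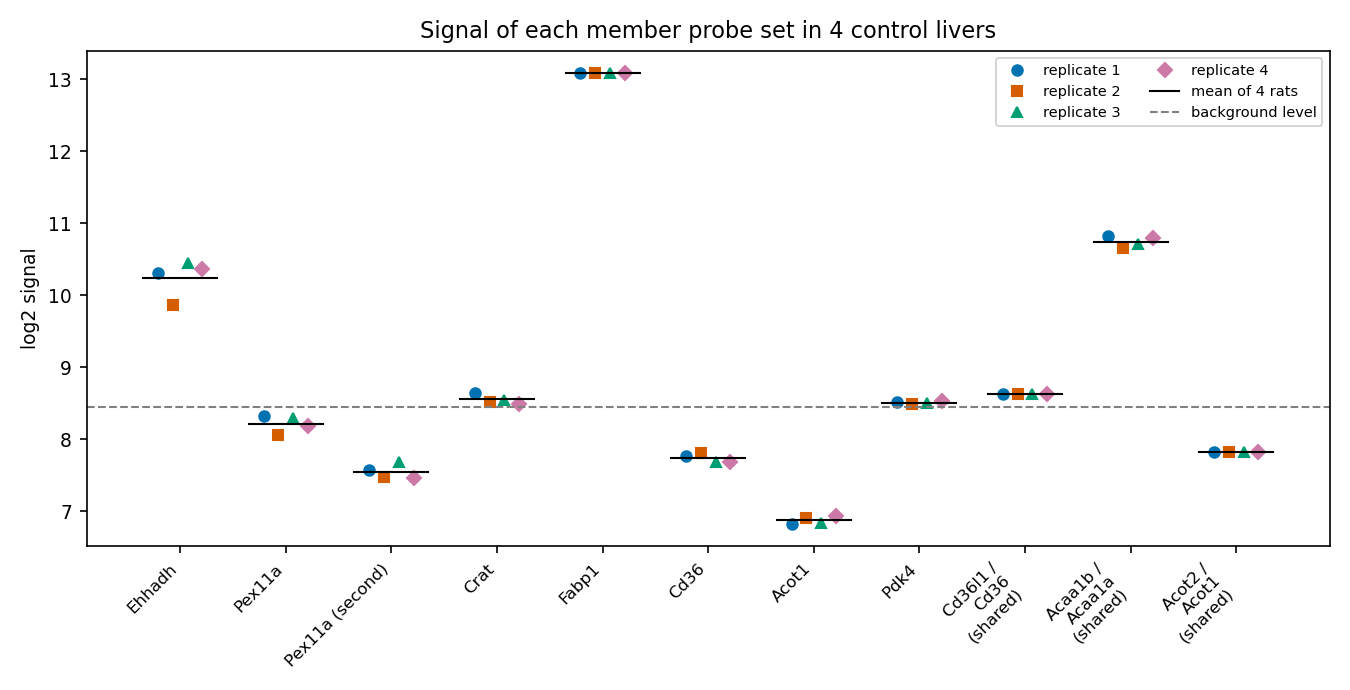
Log2 signal (vertical axis) of each probe set of the members, and of the 3 probe sets that carry a member's symbol and another, in the 4 rats (coloured symbols), with the mean as a black line and the background level of 8.45 as a dashed line. Fabp1 lies at 13.08 in every rat, Ehhadh between 9.86 and 10.45, and Crat and Pdk4 close to the dashed line.

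Ehhadh encodes the peroxisomal bifunctional enzyme, which carries out the middle steps of peroxisomal beta-oxidation. Its log2 signals (probe set 1368283_at) were 10.31, 9.86, 10.45 and 10.37 in replicates 1 to 4, a mean of 10.25 ± 0.27. Replicate 2 was the lowest, and the other 3 rats lay between 10.31 and 10.45. The highest signal was 1.51 times the lowest on a linear scale. The SD of 0.27 was larger than that of 94.4% of the 2830 genes that were above background and not flat, for which the median SD was 0.06. It was 0.073 without replicate 2. An SD of at least 0.2 was found in 9.54% of the 2830 genes, and among the members only in Ehhadh.

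The genes most similar to Ehhadh were those with the smallest root mean square difference of the 4 deviations, each rat being set against the gene's own mean. They were Chchd10, a small mitochondrial protein, with a difference of 0.019 log2 units, Decr1, which prepares unsaturated fatty acids for mitochondrial oxidation, with 0.029, and Amacr, a racemase for branched-chain fatty acids and bile acid intermediates, with 0.032. The signals of Chchd10 were 12.57, 12.17, 12.73 and 12.63. Those of Decr1 were 10.66, 10.13, 10.77 and 10.69, and those of Amacr 11.42, 11.00, 11.57 and 11.56. As for Ehhadh, replicate 2 was the lowest and replicate 3 the highest of the 4 for each of these genes. They were chosen from 2829 genes for this likeness over 4 rats, so it is a description with no test.

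**Figure D2:**
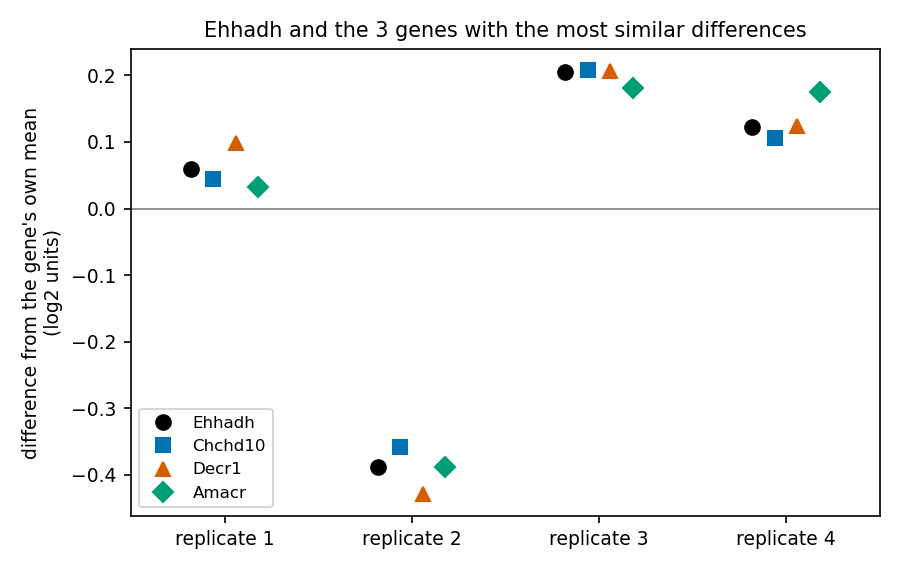
Difference of each rat from the gene's own mean (vertical axis, log2 units) for Ehhadh and the 3 genes with the smallest root mean square difference from it, with replicates 1 to 4 along the horizontal axis. In replicate 2 the 4 genes lie between -0.43 and -0.36, and in replicate 3 between 0.18 and 0.21.

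Acaa1a encodes a peroxisomal 3-ketoacyl-CoA thiolase, which performs the last step of the same pathway, and Acaa1b is its close copy. The probe set that carries both symbols (1387783_a_at) had signals of 10.82, 10.65, 10.71 and 10.80, a mean of 10.74 ± 0.08, and lay above background. This signal cannot be assigned to either gene. Replicate 2 was again the lowest, by 0.09 log2 units below the mean, a smaller difference than the -0.39 of Ehhadh.

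Pex11a encodes a membrane protein that elongates peroxisomes before they divide, and it was the member with 2 probe sets. The brighter one (1379361_at) had signals of 8.33, 8.06, 8.30 and 8.18, a mean of 8.22 ± 0.13. The dimmer one (1387740_at) had 7.57, 7.48, 7.68 and 7.46, a mean of 7.55 ± 0.10. Both were below background, where the order of the rats is not read. The lowest rat also differed, being replicate 2 in the brighter set and replicate 4 in the dimmer one.

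Crat encodes carnitine acetyltransferase, which moves acetyl groups between coenzyme A and carnitine in peroxisomes and mitochondria. Its signals (1371886_at) were 8.64, 8.52, 8.55 and 8.50, a mean of 8.55 ± 0.06. Replicate 1 was the highest, and without it the SD was 0.028. The range was 0.15 log2 units, against 0.59 for Ehhadh, and the SD stood at the 52.7th percentile of the 2830 genes.

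Fabp1 encodes the liver fatty acid binding protein, which carries fatty acids through the cytosol and to the nucleus. Its signal (1369111_at) was 13.08 in all 4 rats, equal to within 0.001, so the probe set is flat and gives no estimate of how the animals differed. It lay 4.64 log2 units above the background level.

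Cd36 encodes a fatty acid translocase of the cell surface that is also carried by macrophages, endothelial cells, fat and muscle. Its own probe set (1367689_a_at) had signals of 7.77, 7.81, 7.69 and 7.69, a mean of 7.74 ± 0.06. Another probe set (1386901_at) carried Cd36 together with Cd36l1, was flat and had a signal of 8.63, above the level that the probe set of Cd36 alone did not reach. Both probe sets are annotated with the same transcript record, so the call for Cd36 depends on which of them is used. No rat differed from the mean of the Cd36 probe set by more than 0.075 log2 units, and at a signal below background the order of the rats is not read.

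Acot1 encodes a cytosolic thioesterase that splits long-chain acyl-CoA, and it is known as one of the genes most strongly induced by PPAR alpha activators in rat liver. Its signals (1398250_at) were 6.83, 6.90, 6.84 and 6.94, a mean of 6.88 ± 0.05, and it was below background in every rat. Acot2, its mitochondrial relative, was flat at 7.31, and the probe set that carries both symbols (1388211_s_at) was flat at 7.82. All 3 were thus below background.

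Pdk4 encodes a pyruvate dehydrogenase kinase that shuts off glucose oxidation in fasting. Its signals (1369150_at) were 8.52, 8.49, 8.50 and 8.53, a mean of 8.51 ± 0.02. The rats differed by at most 0.043 log2 units, and the SD stood at the 9.7th percentile of the 2830 genes.

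**Figure D3:**
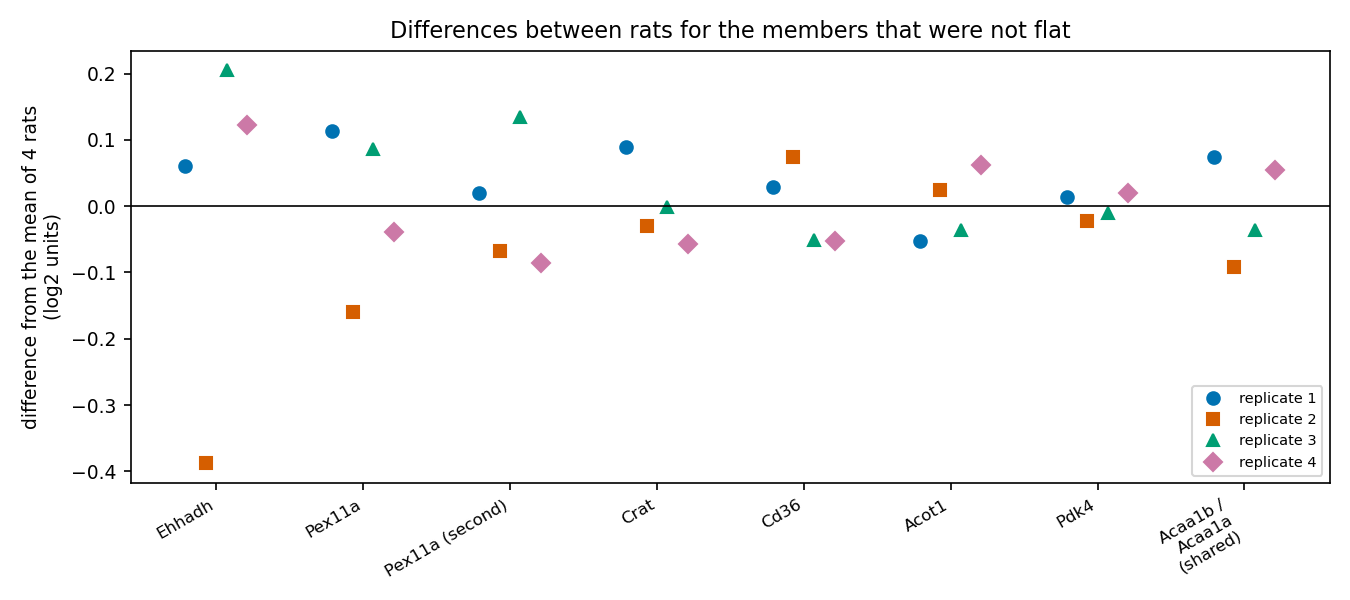
Difference of each rat from the mean of the 4 (vertical axis, log2 units) for the members that were not flat and for the shared probe set of Acaa1b and Acaa1a, with 1 symbol per rat. Replicate 2 lies at -0.39 for Ehhadh and at -0.16 for the brighter Pex11a probe set, and the values of Cd36, Acot1 and Pdk4 lie within 0.075 of 0. The signals of Pex11a, Cd36 and Acot1 are below background.

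The remaining genes of the pathway were described in 11 overlapping lists, which include the members. Of 172 genes listed, 140 had a probe set of their own and 92 of these, or 65.7%, were above background, against 40.4% of all genes. The median signal was 9.19 over the 140 genes and 8.26 over all genes.

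The receptor and its cofactors were above background in 5 of 15 cases, a share of 33.3% that is close to that of all genes. PPAR alpha itself (Ppara) was flat at 7.90 and below background, as was its coactivator Ppargc1a at 7.03. Its partner Rxra had a signal of 9.21 ± 0.06, and Hnf4a, a master regulator of hepatocytes that binds similar repeats, had 9.67 ± 0.21. Ppard, the receptor's widely expressed relative, had 9.10 ± 0.13, while Pparg, the receptor of fat cells, had 7.75 ± 0.05.

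Enzymes of peroxisomal beta-oxidation were above background in 17 of 20 cases. The highest signals were those of Scp2, a sterol carrier with thiolase activity (12.66, flat), Acsl1, which activates long-chain fatty acids (12.21, flat), and Slc27a2, which activates very long-chain fatty acids (12.19 ± 0.03). Dimmer probe sets of Scp2 (10.94) and Acsl1 (12.00) were not flat. Both were lowest in replicate 2, with differences from the mean of -0.06 and -0.09, and neither enters the counts by rat below. The largest SD belonged to Ech1, an auxiliary isomerase for unsaturated fatty acids, whose signals were 10.36, 9.38, 10.03 and 10.27. Other peroxisomal enzymes were above background in 14 of 17 cases, with Baat, which conjugates bile acids, at 12.59 ± 0.07 and catalase (Cat) at 12.52 ± 0.05. Phyh, which starts the alpha-oxidation of phytanic acid, had signals of 12.29, 11.95, 12.74 and 12.23, and Hacl1, the lyase of the same pathway, 9.97, 9.42, 10.10 and 9.67. Both were lowest in replicate 2 and highest in replicate 3, as Ehhadh was. Peroxisome biogenesis genes were above background in 8 of 16 cases (50%), near the 40.4% of all genes. Among them were the membrane channel Pxmp2 at 11.64 ± 0.01 and the protease Lonp2 at 11.28 ± 0.17.

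Mitochondrial targets of PPAR alpha were above background in 15 of 16 cases, with Acaa2, the mitochondrial thiolase, at 12.28 ± 0.22 and Acadm, the medium-chain dehydrogenase, at 12.21 ± 0.15. Eci1, the mitochondrial enoyl-CoA isomerase, had signals of 10.75, 9.75, 10.77 and 10.26, so the highest was 2.03 times the lowest. Its second probe set had a signal of 7.62, below background, so the order of its rats does not bear on that of the first. Other targets were above background in 14 of 25 cases. The largest SDs among them were those of Cyp4a3, a fatty acid omega-hydroxylase with close copies that could share its signal, with 11.06, 9.77, 10.35 and 11.04, and of Angptl4, a secreted inhibitor of lipoprotein lipase, with 9.24, 8.19, 9.07 and 9.53. In both genes replicate 2 was the lowest rat, and the highest signal was 2.44 and 2.53 times the lowest.

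Relatives of the members were counted in the same way, and the counts are to be set beside the 40.4% of all genes above background. Of 8 fatty acid binding proteins, 4 (50%) were above background, a share near that of all genes. Besides Fabp1 they were Dbi, which binds acyl-CoA, at 11.20 ± 0.11, Fabp7, named for brain, at 9.97 ± 0.16, and Fabp5, named for skin, at 9.37 ± 0.11. Fabp2 of gut (7.62), Fabp3 of heart (8.07), Fabp4 of fat (7.17) and Fabp6 of ileum (7.47) were below it. Acyl-CoA thioesterases were above background in 4 of 7 cases (57.1%), with the liver enzyme Acot12 at 9.54 ± 0.09. Carnitine acyltransferases and carriers were above background in 5 of 8 (62.5%). Cpt1a, which admits fatty acids to mitochondria, had 10.08 ± 0.20, with the highest value in replicate 4 in both of its probe sets. The pyruvate dehydrogenase list had 6 of 10 genes above background, and the kinase Pdk2 was flat at 10.41. Genes of fatty acid uptake and activation were above background in 10 of 14 cases, and Slc27a5, the bile acid and very long-chain acyl-CoA synthetase of liver, had signals of 11.70, 10.59, 11.13 and 11.39.

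Genes that were above background and not flat were then counted by the rat in which they were lowest. Replicate 2 was the lowest rat for 30.2% of the 2830 genes. It was lowest for 9 of 14 peroxisomal beta-oxidation genes, 12 of 14 mitochondrial targets and 7 of 12 other targets of PPAR alpha, and for 8 of 12, 11 of 13 and 7 of 12 when the members were left out. The median differences of replicate 2 from the mean of the 4 rats were -0.09, -0.12 and -0.15 log2 units in these lists, and -0.01 over the 2830 genes. The value of the other targets was -0.08 without replicate 3, and -0.09 with each array centred on its median and -0.07 after quantile normalization. That of peroxisomal beta-oxidation was -0.06 after quantile normalization, and also as the difference from the median of the 4 rats. The flat limit was applied again after centring and after quantile normalization, so genes flat as deposited could enter. The values under these 2 settings are therefore not effects of scaling alone. With flat genes kept, the medians were -0.09 for the other targets and -0.06 for peroxisomal beta-oxidation. Replicate 2 lay at least 0.2 log2 units below the mean for 4, 5 and 5 genes of these lists, and for 4.7% of the 2830 genes. For peroxisome biogenesis genes it was the lowest rat in 2 of 7 cases (28.6%), for other peroxisomal enzymes in 4 of 13 (30.8%) and for the receptor and its cofactors in 0 of 4, so the first 2 shares were near the 30.2% of all genes. It was the lowest rat for 3 of 3 genes of the pyruvate dehydrogenase list and 2 of 2 acyl-CoA thioesterases, with median differences of -0.02 and -0.10 log2 units. The counts were 2 of 5 for carnitine acyltransferases and carriers, 2 of 6 for fatty acid uptake and activation and 0 of 3 for fatty acid binding proteins. A low value in replicate 2 was not shared by all targets either. The lipoprotein regulator Apoa5 differed from its mean by 0.01 log2 units in replicate 2. For Cpt1a the difference was -0.02 in the brighter probe set and -0.12 in the other, and replicate 1 was the lowest rat in both. Hadh, a mitochondrial hydroxyacyl-CoA dehydrogenase, and Crot, which transfers octanoyl groups in peroxisomes, were highest in replicate 2, at 11.98 and 9.32. A second probe set of Crot, also above background, was flat at 9.05.

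In all 11 lists together, replicate 2 was the lowest for 39 of 76 genes. Genes of a pathway are not independent and 1 rat had 1 array, so these counts describe the 4 arrays and carry no test. Hepatocyte markers had a median difference of 0.01 in replicate 2, and their summed signal was 16.81, 16.84, 16.84 and 16.84. That sum is weighted to the brightest genes, such as Alb at 15.06, and Apoa1 differed from its mean by -0.48 in replicate 1. Kupffer cell and macrophage markers were above background in 7 of 7 cases measured, with a summed signal of 12.63, 12.89, 12.78 and 12.69, as log2 of the sum. Of the 6 that were not flat, 5 were highest in replicate 2, as were 21% of the 2830 genes. Of the 9 stellate cell and fibroblast markers 4 were above background, and their median difference was -0.06, 0.27, -0.45 and 0.24 in replicates 1 to 4. Endothelial markers were above background in 4 of 6 cases, with a summed signal of 11.36, 11.40, 11.46 and 11.45. The part of these cells in the values of the lists was not tested. Per the scanner settings all 4 arrays were of 1 lot and scanned on 1 day, each in its own fluidics module, so no batch could be fitted.

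**Figure D4:**
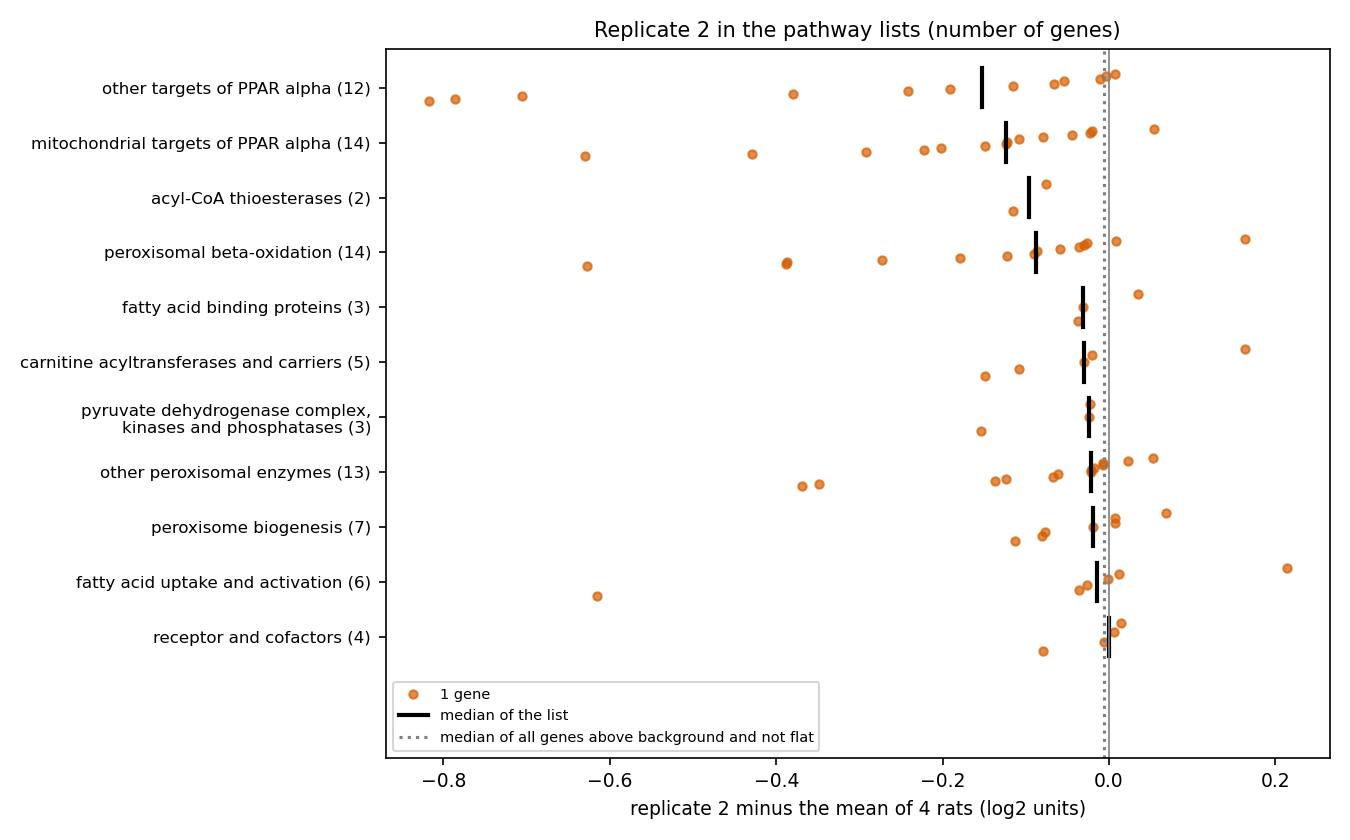
Difference of replicate 2 from the mean of the 4 rats (horizontal axis, log2 units) for each gene that was above background and not flat, in the 11 lists (number of genes in parentheses), with the list median as a black bar and the median of all 2830 genes as a dotted line. The medians of the peroxisomal beta-oxidation, mitochondrial target and other target lists lie at -0.09, -0.12 and -0.15, while that of the receptor list lies close to 0.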

How the data were processed

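Total liver RNA of 4 rats was measured, 1 Affymetrix array each. The deposited values are log2 signals per probe set. GCRMA and RMA, with affy 1.12.2 in R 2.4.1, are named per the submitters' processing notes; which method made the deposited values is not given in the sources used here. RAE230A is the array type per the file headers, whereas the labels give RAE230-2. From the deposited scanner settings, which hold no measured values, the chip type, lot, station, module and day were read.

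Of 15923 probe sets, 12789 carried 1 symbol, 12754 of them matched by gene number to GRCr8. The probe set with the highest mean stood for its gene. The background level was the 95th percentile over 50 of 59 listed genes. The scripts were tested on simulated data and used Python 3.11.15, numpy 2.4.6 and pandas 2.3.3. No group test was possible.

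The members and lists were chosen with earlier results of these data known. Named genes were the members, the 3 highest means and 2 largest SDs above background of each list, the receptor and fatty acid binding protein lists, and the 3 genes most similar to a member with an SD of at least 0.2. Acot2 was named after its values were seen. The number of arrays limits precision. Alternatives covered background, scaling, probe sets, spread and leaving out each rat.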

Additional observations from a re-analysis of the deposited data

Results flagged for a closer look

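A single rat stood apart from the remaining 3 in 5 of 56 sets of 4 values. By chance this happens in about 5% of sets that were not chosen by their values. Here some genes were named for a large SD or for likeness to Ehhadh, and the sets overlap. The 5% is therefore no measure for these sets. Retsat, a retinol saturase, was lowest in replicate 2 at 11.51, against 12.01, 12.02 and 12.02 in the other rats. Decr1 was lowest there at 10.13 as well. The mean difference of the peroxisomal beta-oxidation genes was -0.15 log2 units in replicate 2, below the other 3 rats. Hadh was highest in replicate 2 at 11.98, but its range was 0.077 log2 units. Tysnd1, a protease of the peroxisome, was highest in replicate 3 at 9.42.

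The following probe sets, which carry a member's symbol and another, lay above background although they are not annotated with a single gene. That of Acaa1b and Acaa1a had a mean log2 signal of 10.74, and that of Cd36l1 and Cd36 had 8.63.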

How the results depend on the processing

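No paired analysis was possible because there is 1 group. Of 184 alternatives over 24 results, 171 left the value within a set tolerance, and 0 reversed a sign. The tolerance was the SD between rats, or 1.5 times for counts and SDs. Many of these outcomes were fixed in advance. Leaving out 1 of 4 rats cannot move a mean signal by more than its SD. For a member with 1 probe set, the median of the probe sets is the same value. Only the differences in replicate 2 could reverse a sign. The tally of 171 is therefore no measure of robustness. For the list medians in replicate 2 it was the SD of that difference over the genes of the list. This last tolerance is wide, and a change from -0.07 to -0.02 for all lists lay within it. With the 98th percentile, 2 members were above background in place of 4, and the same number with the second highest gene of the background list, Syp, an alternative added after seeing the data. The signal of Fabp1 was 13.09 after quantile normalization, a shift that counts only because the probe set is flat, and that of Pex11a was 7.88 as the median of its 2 probe sets. With the range in place of the SD, which is larger by construction, the values were 0.593 for Ehhadh, 0.115 for Acot1, 0.274 for Pex11a, 0.146 for Crat, 0.0433 for Pdk4 and 0.127 for Cd36. Leaving out each rat in turn gave an SD of 0.0726 to 0.321 for Ehhadh, 0.0807 to 0.151 for Pex11a and 0.0277 to 0.0776 for Crat. The lowest of these came without replicate 2 for Ehhadh and Pex11a and without replicate 1 for Crat. The deviation of Ehhadh in replicate 2 was -0.39, and between -0.37 and -0.32 without another rat. The median difference of all pathway lists in replicate 2 was -0.07. It was -0.04 with centred arrays, -0.02 after quantile normalization and -0.03 with flat genes kept. After each rescaling the flat limit was applied again, so genes flat as deposited could enter these medians. Genes lowest in replicate 2 numbered 39 of 76 as deposited, 55 with centred arrays and 36 after quantile normalization. The last 2 counts are over a different set of genes, because genes flat as deposited could enter them too. Centring shifts each array by a single amount, so all flat genes that enter become lowest in the same rat. The counts after rescaling are therefore not comparable with the 39. The number of rats and arrays, and probe sets close to or below the background signal, limit what these values can show.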
